A study of Mus musculus with 24 samples.

Results

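The 10 genes Notch1, Notch2, Notch3, Dll1, Dll3, Dll4, Jag1, Hes1, Hes5 and Hey1 encode receptors, ligands and nuclear targets of the Notch pathway, and they were followed through 4 ages of mouse retinal organoids. They were taken by gene symbol from count tables of 126602 features, of which 46603 were annotated Ensembl genes and the rest loci assembled from the reads. All 10 were found, 3 receptors, 4 ligands and 3 targets, and all 10 had enough reads to be tested, as 46949 features did in all. Retinal organoids are aggregates of retina grown from stem cells in culture.

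The organoids were grown from a single mouse embryonic stem cell line, E14Tg2a, with a genotype labelled Control, and the labels name the solvent water as the only addition over time. Per the study's methods, all organoids shared Matrigel at the start of culture, cutting into 3 pieces, medium with serum and N-2 supplement, and the synthetic retinoid analogue EC23 for some days before the ages sampled. The titles at the 3 later ages carry the mark Ctrl and those at D20 do not. At day 20 (D20), D22, D25 and D30 of differentiation, 6 individual organoids were lysed and sequenced, which gave 24 ribosome-depleted, strand-specific RNA libraries with 13634846 to 19477108 counted reads. All organoids belonged to 1 experiment and no other treatment or genotype was compared, so that the p-values measure the spread between organoids of that experiment. No library stood apart as a copy of another, since the least different of 60 pairs of the same age differed by 5.14 times the chi-square that sampling alone would give. Levels are given as CPM, the counts of a gene relative to all counted reads after scaling between libraries (normalized CPM). Before that scaling, 3 counts corresponded to 0.154 to 0.22 CPM.

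In Notch signalling, a Delta-like or Jagged ligand on a cell's surface binds a Notch receptor on its neighbour, which is then cut so that its inner part enters the nucleus. There it joins the DNA-binding protein Rbpj and switches on repressors of the Hes and Hey families, which hold down the proneural genes that start neuron formation. In the developing retina the pathway is known for keeping progenitors from becoming neurons too early, and later for a part in forming Müller glia, the main support cells of the retina.

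Promoter sequences were searched for 3 short motifs, because the targets are known to be bound by Rbpj and some ligand genes by proneural factors. RefSeq (build GRCm38.p6) had 9 entries for 8 of the 10 genes, all but Hes1 and Hey1, with 2 for Dll1, and the 250 bases before each annotated start were read on both strands. Some RefSeq starts differ from the gene ends given below. The windows of Notch1 and Dll3 and the Dll1 window not printed here lie inside the gene by those coordinates. Those of Jag1 and Notch2 do so in part. The Rbpj motif GTGGGAA, whose letters on the opposite strand of the same site read TTCCCAC, was present in 1 of the 9 entries, that of Hes5, which held it in 2 places, while 5.42% of 32851 promoters of that length held it. An E-box with the letters CAGCTG, bound by proneural factors, stood in 3 of the 9 entries (Dll3, Jag1 and 1 of the 2 of Dll1), against 13% of promoters. The N-box CACNAG to which Hes proteins bind was found in 4 of the 9, against 36.7%. Each motif was counted on its own, so that matches of different motifs may overlap, and a match describes letters in the window, not binding. The promoters that held the Rbpj motif or the E-box follow, 5′ to 3′ on the strand of the gene, with those motifs in capitals.

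Hes5, chr4:154960673-154960922, plus strand: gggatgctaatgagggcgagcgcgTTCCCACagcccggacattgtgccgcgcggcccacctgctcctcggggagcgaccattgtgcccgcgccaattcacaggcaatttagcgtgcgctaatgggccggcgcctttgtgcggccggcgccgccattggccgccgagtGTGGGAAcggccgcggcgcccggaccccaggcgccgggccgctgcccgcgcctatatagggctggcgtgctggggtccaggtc
Dll1, chr17:15376933-15377182, minus strand: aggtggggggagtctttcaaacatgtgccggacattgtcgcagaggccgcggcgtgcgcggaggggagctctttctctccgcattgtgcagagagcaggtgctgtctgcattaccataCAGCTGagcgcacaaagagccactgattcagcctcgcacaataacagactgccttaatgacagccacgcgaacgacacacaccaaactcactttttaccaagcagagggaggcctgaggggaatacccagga
Dll3, chr7:28301786-28302035, minus strand: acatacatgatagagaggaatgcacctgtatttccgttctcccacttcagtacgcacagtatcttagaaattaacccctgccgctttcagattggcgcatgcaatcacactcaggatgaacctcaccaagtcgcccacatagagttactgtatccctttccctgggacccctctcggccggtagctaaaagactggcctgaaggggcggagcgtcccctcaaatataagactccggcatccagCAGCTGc
Jag1, chr2:137116521-137116770, minus strand: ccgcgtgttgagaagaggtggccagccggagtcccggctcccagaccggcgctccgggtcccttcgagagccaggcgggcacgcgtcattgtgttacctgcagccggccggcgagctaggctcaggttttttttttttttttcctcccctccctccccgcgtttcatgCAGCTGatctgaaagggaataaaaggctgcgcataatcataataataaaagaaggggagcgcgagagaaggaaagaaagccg

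Over the whole interval, 9 of the 10 genes changed from D20 to D30, with 7 lower and 2 higher. The exception was Hey1, and the genes that rose were Notch2 and Jag1. In that comparison 26.8% of all tested features passed the same threshold, an adjusted p under 0.01 by edgeR's quasi-likelihood test. As shares of all tested features, 13% passed as lower and 13.9% as higher. The median log2 change of the 10 genes was -1.48, against -0.04 over all tested features. From D20 to D22 a single gene passed, Dll1, which was lower (1.9% of all features passed, 0.285% lower). From D22 to D25, 7 of the 10 passed, with 6 lower and Jag1 higher (5.28% of all features passed, 2.19% lower and 3.08% higher), and from D25 to D30 only Notch2 passed, which was higher (3.51% of all features, 1.76% higher and 1.75% lower). In the joint test of the 4 ages 9 of the 10 passed, as did 27.2% of all features. Across a pair of steps, 7 genes passed from D20 to D25, all lower (15.1% of all features, 8.5% higher and 6.61% lower), and 8 from D22 to D30, with 2 higher and 6 lower (21.5%, 11% higher and 10.5% lower). These comparisons share organoids with the steps. The median log2 changes of the 10 genes over these 3 steps were -0.66, -0.76 and -0.10, against 0.02, -0.05 and -0.02 over all features. The plot of changes by step shows these values with their confidence intervals.

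**Figure D1:**
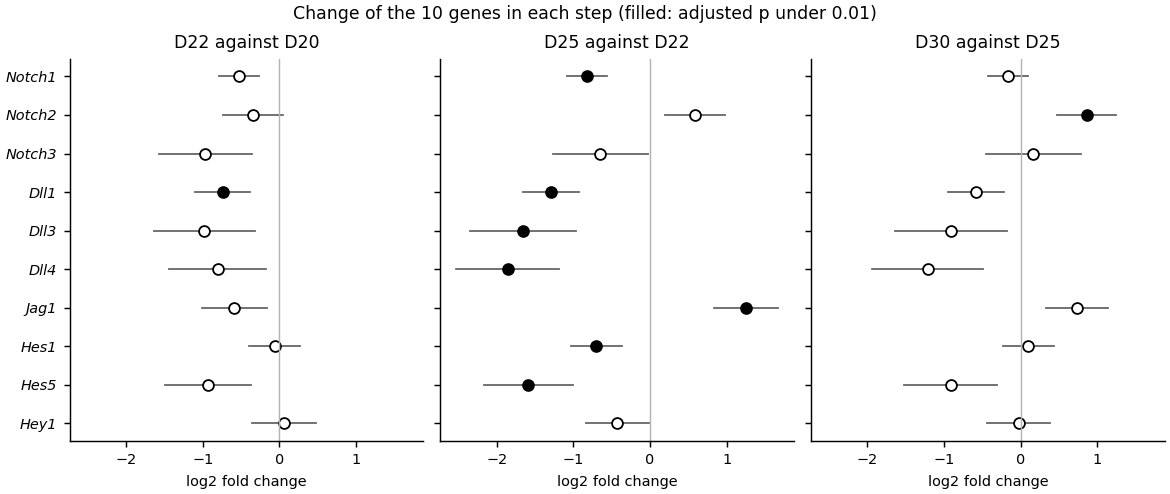
Log2 fold change of each gene over the 3 consecutive steps, with its 95% confidence interval (line) from the fit over 24 organoids; filled points have an adjusted p under 0.01. From D22 to D25, 7 genes are filled, with Jag1 to the right of zero and the other 6 to the left, and from D25 to D30 only Notch2 is filled.

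Notch1 (ENSMUSG00000026923), on chromosome 2 from 26457903 to 26516663 of GRCm38, was the most abundant receptor RNA per kb of exon until D25 (14.23 kb of joined exons, against 10.78 kb for Notch2). Its levels ran from 118 to 171 normalized CPM at D20 (median 127), from 88.3 to 98.5 at D22 (95.2), from 43.3 to 71.7 at D25 (50.8) and from 36.3 to 60.1 at D30 (44.8). All organoids at D22 lay below all at D20, and all at D25 below all at D22, while the organoids at D25 and D30 overlapped. The log2 fold change was -0.52 from D20 to D22 (SE 0.12, adjusted p = 0.0109), -0.82 from D22 to D25 (SE 0.13, adjusted p = 7.054e-05) and -0.17 from D25 to D30 (adjusted p = 0.541). Between D20 and D22 the value fell just outside the threshold, and it passed with DESeq2, with annotated genes alone and with the libraries of those ages alone.

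Notch2 (ENSMUSG00000027878), on chromosome 3 from 98013527 to 98150361, moved the other way. It ranged from 18.6 to 23.7 normalized CPM at D20 (median 21.0), from 13.6 to 20.2 at D22 (16.4), from 18.3 to 33.8 at D25 (22.5) and from 25.9 to 68.7 at D30 (44.8). The organoids at D30 all lay above those at D20 and were the most widely spread of the 4 ages, with a coefficient of variation of 38.2%, against 7.9% at D20. The log2 fold change was 0.58 from D22 to D25 (adjusted p = 0.0409) and 0.86 from D25 to D30 (SE 0.19, adjusted p = 0.00315). The call from D25 to D30 was lost without D25 replicate 2 or 5 or D30 replicate 1 or 5 (adjusted p from 0.0107 to 0.0131) and with the libraries of those ages alone (0.0276). Over the whole interval the log2 change was 1.1 (SE 0.19, adjusted p = 2.177e-05), and the call was kept whichever organoid was left out.

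Notch3 (ENSMUSG00000038146), on chromosome 17 from 32120820 to 32166852, was the least abundant of the 3 receptors, at 6.6 to 12.8 normalized CPM at D20 (median 9.69). At D22 the 6 organoids spread from 2.58 to 7.85, and at D25 they drew together between 2.32 and 3.8. At D30 they ran from 1.39 to 6.22, below all organoids at D20. No single step passed the threshold (log2 -0.97 from D20 to D22, adjusted p = 0.048), but the interval from D20 to D30 did, with a log2 change of -1.45 (SE 0.30, adjusted p = 0.000222). Notch4, the remaining mouse receptor, was at 0.783 to 4.23 CPM over all organoids, and its log2 change from D22 to D25 was -0.63 (adjusted p = 0.217).

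**Figure D2:**
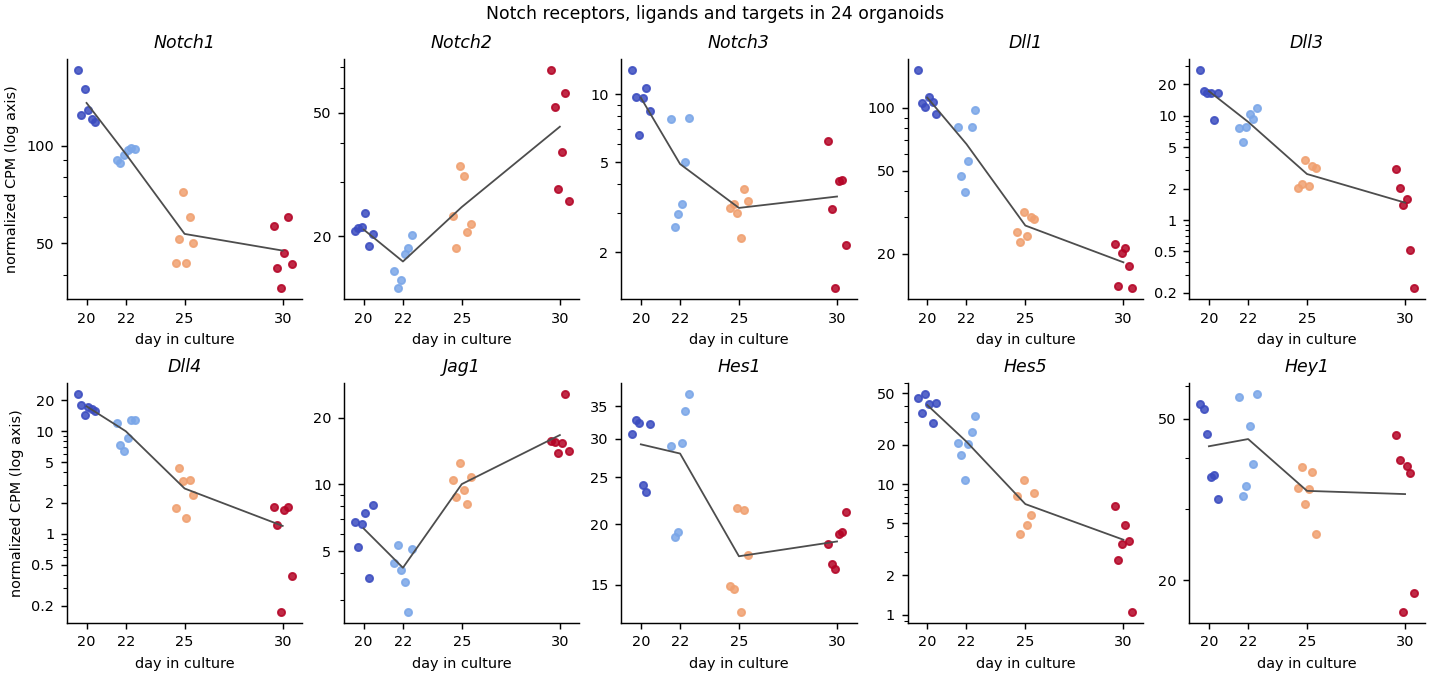
Normalized CPM (log axis) of the 10 genes in the 24 organoids against day in culture, with each point an organoid and the line through the mean of 6. Notch1, the 3 Delta-like ligands and Hes5 descend from D20 to D30, whereas Jag1 dips to a median of 4.27 at D22 and climbs to 15.4 at D30.

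Among the ligands, the Delta-like genes fell at every step by their point estimates while Jag1 turned upward. Dll1 (ENSMUSG00000014773), on chromosome 17 from 15367354 to 15376872, is a Delta-like ligand made by newly forming neurons. It was at 93.9 to 152 normalized CPM at D20 (median 106), 39.6 to 97.3 at D22 (68.6), 22.9 to 31.9 at D25 (27.5) and 13.7 to 22.3 at D30 (19.0). The organoids at D25 all lay below those at D22, and those at D30 below those at D25, while D20 and D22 overlapped through 1 organoid at D22. The log2 change was -0.74 from D20 to D22 (SE 0.17, adjusted p = 0.00849), -1.30 from D22 to D25 (SE 0.17, adjusted p = 1.41e-05) and -0.58 from D25 to D30 (adjusted p = 0.0362). The call from D20 to D22 was fragile. It was lost when any of D20 replicates 1 to 5, D22 replicates 2 to 4 or D25 replicates 4 and 5 was left out, 10 of 24 in all (adjusted p from 0.01 to 0.0352), with annotated genes alone (0.0112) and with the libraries of those ages alone (0.0104). The 95% confidence interval of that change ran from -1.1 to -0.38.

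Dll3 (ENSMUSG00000003436), on chromosome 7 from 28293553 to 28302238, encodes a Delta-like protein that is known to act inside the cell rather than to activate receptors. It ranged from 9.03 to 27.5 normalized CPM at D20 (median 16.5), from 5.58 to 11.8 at D22 (8.56), from 2.03 to 3.73 at D25 (2.7) and from 0.222 to 3.08 at D30 (1.49). The lowest organoid at D30 had 4 counts. Its log2 change from D22 to D25 was -1.66 (SE 0.33, adjusted p = 0.00117), with no overlap between the ages.

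Dll4 (ENSMUSG00000027314), on chromosome 2 from 119325784 to 119335962, is a Delta-like ligand of newly forming neurons and of sprouting vessels. Its organoids ran from 14.3 to 23.2 normalized CPM at D20 (median 16.7), from 6.42 to 12.8 at D22 (10.3), from 1.44 to 4.39 at D25 (2.81) and from 0.174 to 1.83 at D30 (1.47). At D20, D22 and D25 the groups of 6 were fully apart from each other. From D20 to D30 it had the largest fall of the 10 genes, with a log2 change of -3.88 (SE 0.35, adjusted p = 3.27e-10), and from D22 to D25 the change was -1.86 (SE 0.32, adjusted p = 0.000262). Of 7 endothelial markers, 3 were at 0 in all 6 organoids at D20, namely Cdh5, Emcn and Tie1, and at D30 Cdh5 reached at most 0.554 CPM and Emcn 1.11. Of the 3 that could be tested, Kdr and Cldn5 were lower at D30 than at D20 and Pecam1 was higher. Pecam1 went the other way from Dll4, from at most 0.66 CPM at D20 to between 0.721 and 1.93 at D30 (log2 2.97, SE 0.72, adjusted p = 0.0015). Cldn5 was low but moved with Dll4, lying between 1.72 and 4.05 CPM at D20 and at no more than 0.166 at D30, and the part of endothelial cells in the result was not tested. The sum of the 7 endothelial markers, 126 to 343 CPM over all organoids, was nearly all Kdr, which ran from 124 to 205 at D30.

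A noncoding gene on the opposite strand, Gm14207, shares exon sequence with Dll4, and fell with it. Gm14207 went from 9.34 to 16.2 normalized CPM at D20 (median 12.8) through 3.63 to 12.5 at D22 (7.99) and 0.695 to 3.05 at D25 (1.48) to between 0.114 and 0.665 at D30 (0.293). Its log2 change was -2.30 from D22 to D25 (adjusted p = 2.849e-05) and -5.21 from D20 to D30 (adjusted p = 5.874e-12). The libraries were strand-specific, but how strand was set in the counting is not given in the sources used here, so that reads of this pair cannot be told apart with certainty. Dll1 also overlaps an opposite-strand gene, A930024N18Rik, which had a mean of 50.6 counts against 851 for Dll1, and Notch1 overlaps 0610009E02Rik, with 34.4 counts against 1262.

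Jag1 (ENSMUSG00000027276), on chromosome 2 from 137081456 to 137116644, is the Jagged ligand of the group. It was at 3.77 to 8.07 normalized CPM at D20 (median 6.69) and 2.66 to 5.3 at D22 (4.27), then at 8.14 to 12.5 at D25 (9.97) and 13.8 to 25.7 at D30 (15.4). Every organoid at D25 lay above every organoid at D20 and at D22, and every organoid at D30 above those at D25. The log2 change was -0.59 from D20 to D22 (adjusted p = 0.0918), 1.25 from D22 to D25 (SE 0.20, adjusted p = 0.00012) and 0.73 from D25 to D30 (adjusted p = 0.0151). The last of these passed with DESeq2, with its size factors in edgeR and without D20 replicate 5. Jag2, the other Jagged ligand, changed by 0.07 from D22 to D25 (adjusted p = 0.849) and by -0.65 from D20 to D30 (adjusted p = 0.00147).

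The 3 targets behaved differently from each other. Hes5 (ENSMUSG00000048001), on chromosome 4 from 154960923 to 154962371, encodes a repressor whose RNA is widely used as a readout of the pathway in neural progenitors. It ran from 29.7 to 49.5 normalized CPM at D20 (median 41.4), from 10.8 to 33.5 at D22 (20.4), from 4.18 to 10.7 at D25 (6.94) and from 1.05 to 6.85 at D30 (3.57). The ages D22 and D25 did not overlap, although the lowest organoid at D22 and the highest at D25 were next to each other. From D20 to D22 the log2 change was -0.93 (SE 0.27, adjusted p = 0.039), with a 95% confidence interval from -1.50 to -0.37, and from D20 to D30 it was -3.43 (SE 0.30, adjusted p = 1.636e-10).

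Hes1 (ENSMUSG00000022528), on chromosome 16 from 30064384 to 30067796, is a repressor of the same family that many signals besides Notch can induce. Its organoids ran from 23.3 to 32.8 normalized CPM at D20 (median 31.4), from 18.8 to 37.2 at D22 (29.2), from 13.2 to 21.6 at D25 (16.1) and from 16.2 to 21.2 at D30 (18.6). Of the 3 steps, the level changed past the threshold from D22 to D25, by a log2 change of -0.70 (SE 0.16, adjusted p = 0.00374), and these ages overlapped. That call was lost without D22 replicate 5 or 6 or D25 replicate 1 or 4 (adjusted p from 0.0115 to 0.0158) and with the libraries of those ages alone (0.0122). The change was -0.06 from D20 to D22 (adjusted p = 0.893) and 0.10 from D25 to D30 (adjusted p = 0.834), and its 95% confidence interval in the latter step ran from -0.23 to 0.43.

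Hey1 (ENSMUSG00000040289), on chromosome 3 from 8663359 to 8667256, encodes a repressor related to the Hes proteins. Its levels spanned 31.6 to 54.3 normalized CPM at D20 (median 41.0), 32.2 to 57.6 at D22 (43.3), 25.9 to 37.9 at D25 (33.7) and 16.7 to 45.5 at D30 (37.5). Every pair of neighbouring ages overlapped. No comparison passed for Hey1, and the joint test over the 4 ages gave an adjusted p of 0.117. From D22 to D25 the log2 change was -0.42 with a 95% confidence interval from -0.84 to -0.01, and from D20 to D30 it was -0.39 with an interval from -0.81 to 0.02. From D25 to D30 the estimate was -0.03 and turned to 0.03 with DESeq2 and with its size factors in edgeR.

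Counting organoids rather than fitted changes, 9 of the 10 genes had groups that did not overlap between D20 and D30 (2 higher and 7 lower), as did 18.9% of all tested features (9.6% higher and 9.34% lower). Between D20 and D22 these were Notch1 and Dll4, both lower (2.45% of all features, 1.48% higher and 0.965% lower), between D22 and D25 they were Jag1, Notch1, Hes5 and the 3 Delta-like genes (5.46%, 3.17% higher and 2.29% lower), and between D25 and D30 they were Jag1 and Dll1 (4.29%, 2.14% higher and 2.15% lower). Between D20 and D25, 1 gene lay fully higher, Jag1, and 7 fully lower (13.8% of all features, 7.61% higher and 6.19% lower). Between D22 and D30, 2 lay fully higher and 5 fully lower (13.8%, 7.08% higher and 6.72% lower). In bulk samples such as whole organoids, fewer cells of a type and less RNA per cell cannot be told apart.

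The steps lasted 2, 3 and 5 days, so the change per day was compared between consecutive steps. None of the 10 genes passed 0.01 in edgeR's quasi-likelihood test of that difference (0.0298% of all features passed in the earlier comparison, 0.00213% higher and 0.0277% lower, and 0.0128% in the later, all lower). At an unadjusted p under 0.05 there were 2 genes in the earlier comparison and 7 in the later, and 12.4% and 9.99% of all features. The clearest was Jag1, whose change per day rose by 0.71 on the log2 scale between the step from D20 to D22 and the step from D22 to D25 (unadjusted p = 4.89e-05, adjusted p = 0.0373). With DESeq2 this was the only gene past 0.01 (adjusted p = 0.00177). The log2 changes per day of Notch1 (0.24, adjusted p = 0.0863) and Dll1 (0.31, adjusted p = 0.105) were less negative from D25 to D30 than from D22 to D25 by estimates that did not pass. With DESeq2, Notch1 (adjusted p = 0.034) and Dll1 (0.0367) did not pass 0.01 either.

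Levels of different genes were compared as normalized CPM per kb of exon. The length was that of all annotated exons of a gene joined, which can exceed the length of its main transcript. At D20, Hes5 (29.7 ± 5.19 CPM per kb, SD, n = 6) and Dll1 (26.6 ± 4.91) stood highest, and their organoids overlapped. Hes1, Hey1 and Notch1 came next at 14.3 ± 2.14, 13.1 ± 2.93 and 9.51 ± 1.44, each overlapping its neighbour. Jag1 was lowest at 1.08 ± 0.269, overlapping Notch3 at 1.19 ± 0.257. At D30 the order was led by Hey1 (9.97 ± 3.65) and Hes1 (9.04 ± 0.915), which overlapped, with Hes1 above all organoids of the next gene, Dll1 (4.33 ± 0.88). From Dll1 down, each gene overlapped the next, through Notch2 (4.18 ± 1.6), Notch1, Jag1, Hes5, Dll3 and Notch3 to Dll4 (0.31 ± 0.193). Hes5 had thus moved from the top of the order to the seventh place.

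Summed within each role, receptor RNA went from 12.7 ± 1.58 CPM per kb at D20 to 8.77 ± 0.681, 6.44 ± 1.09 and 7.95 ± 2.33 at the later ages. Ligand RNA went from 38.2 ± 7.46 to 22.3 ± 6.63, 9.89 ± 1.3 and 8.02 ± 1.42. Target RNA went from 57.1 ± 8.09 to 42.9 ± 11.9, 23.8 ± 2.78 and 21.8 ± 4.69. All 3 roles were lower at D25 than at D20 in every organoid, whereas receptors at D25 (5.58 to 8.54) and D30 (5.35 to 11.1) overlapped.

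The make-up of each role also changed. Among receptors, Notch1 held 75.0 ± 2.5% of the summed CPM per kb at D20 and 43.2 ± 6.82% at D30, while Notch2 went from 15.5 ± 1.86% to 51.5 ± 6.39%. Not divided by length, mean normalized CPM at D30 was 47.4 ± 9.11 for Notch1 and 45.1 ± 17.2 for Notch2. Which of these receptors led at D30 thus depended on the exon lengths used. Among ligands, Jag1 rose from 2.89 ± 0.833% to 36.0 ± 7.63%, and Dll1 went from 69.7 ± 3.23% to 54.1 ± 6.52%. Among targets, Hes5 went from 51.9 ± 4.55% to 12.2 ± 5.03%.

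**Figure D3:**
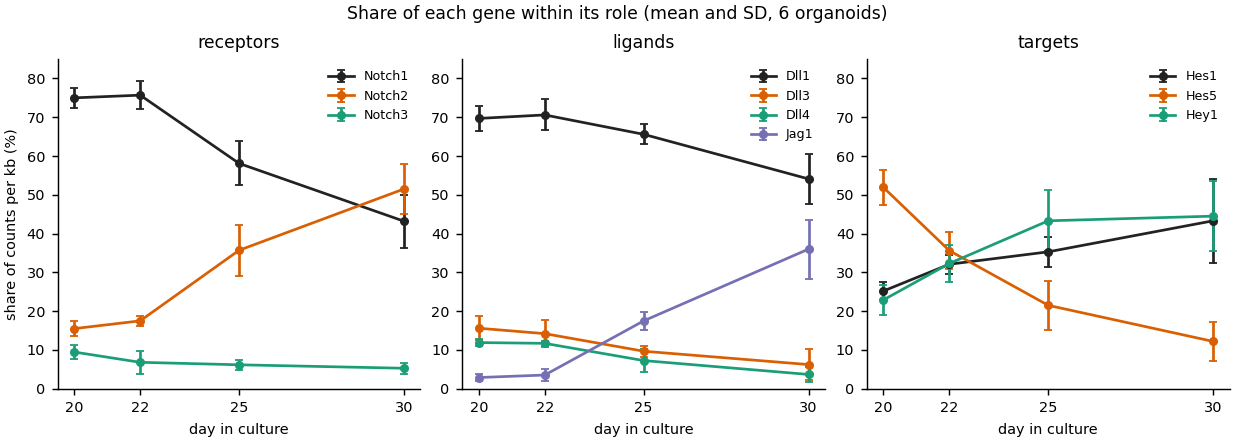
Share of each gene in the summed normalized CPM per kb of its role (percent, mean and SD of 6 organoids) against day in culture. Notch2 and Jag1 gain share after D22 while Notch1 and Hes5 lose it. Notch1 and Notch2 meet between D25 and D30, at a point that depends on the exon lengths used.

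Ratios of a pair of genes within a library do not depend on how libraries are scaled, and 3 of them were tested over the 3 steps by exact two-sided permutation tests of 6 against 6 organoids (9 comparisons, smallest possible p = 0.002165). The log2 ratio of Hes5 to Hes1 counts was 0.46 ± 0.24, -0.44 ± 0.25, -1.34 ± 0.44 and -2.49 ± 0.98 at the 4 ages in turn. It dropped by 0.90 in each of the earlier steps, without overlap (exact permutation p = 0.002165, adjusted p = 0.0039), and by 1.15 from D25 to D30 (exact permutation p = 0.013, adjusted p = 0.0167). Hes5 therefore fell relative to Hes1 from D20 to D22, a step in which neither gene passed 0.01 by itself. In edgeR's quasi-likelihood test of that step the adjusted p was 0.039 for Hes5 and 0.893 for Hes1.

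The log2 ratio of Notch1 to Notch2 counts was 2.68 ± 0.22 at D20 and 2.52 ± 0.16 at D22 (exact permutation p = 0.178, adjusted p = 0.2). It then dropped to 1.12 ± 0.40 at D25 (exact permutation p = 0.002165, adjusted p = 0.0039) and to 0.14 ± 0.41 at D30 (exact permutation p = 0.00433, adjusted p = 0.00649). The log2 ratio of Dll1 to Jag1 counts showed the same order of steps, with 4.17 ± 0.46 at D20 and 3.95 ± 0.67 at D22 (exact permutation p = 0.517), 1.45 ± 0.22 at D25 and 0.14 ± 0.45 at D30. Both later drops, of 2.50 and 1.31, had no overlap (exact permutation p = 0.002165, adjusted p = 0.0039).

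Organoids of the same age differed in these genes, and the differences were partly shared. After the mean of each age was subtracted, the log2 levels of 9 of the 45 gene pairs were correlated over the 24 organoids past an adjusted p of 0.05 by Pearson's r, all 9 positively, and 6 by Spearman's rho (100000 permutations within ages, adjusted over 45 pairs). The closest pair was Notch3 and Dll4 (r = 0.82, rho = 0.81, permutation p = 1e-05, the smallest possible, and 3e-05, adjusted p = 0.00045 and 0.00135). Within D20, D22, D25 and D30 its r was 0.88, 0.90, 0.67 and 0.95, and without the 2 organoids farthest from the median in Notch3 it was 0.72. Next by permutation p, though not by r, was the pair of Dll1 and Hes5 (r = 0.73, rho = 0.74, permutation p = 2e-05 and 0.00018, adjusted p = 0.00045 and 0.00405). Their r was 0.21 within D20 but 0.92, 0.76 and 0.88 at the later ages, and 0.65 without the 2 organoids farthest from the median in Dll1. Hey1 went with Dll4 (r = 0.79, rho = 0.75, permutation p = 0.00091 and 0.00078, adjusted p = 0.0109 and 0.0117) and with Notch3 (r = 0.76, rho = 0.75, permutation p = 0.00097 and 0.00113, adjusted p = 0.0109 and 0.0127), most closely within D30 (r = 0.96 and 0.93). Both pairs had a low r within D25 (0.31 and 0.09). Without the 2 organoids farthest from the median in Dll4, or in Notch3 for the other pair, r was 0.63 for each. At D30, Dll4 had 3 and 7 counts in organoids 3 and 6, which also had the lowest Hey1 (16.7 and 18.6 normalized CPM) and Notch3 (1.39 and 2.16). The r of these 3 genes within D30 therefore includes organoids near the floor. None of the 9 pairs held Jag1, whose highest r with another of the genes was 0.34. How often pairs of other genes co-varied between organoids of the same age was not tested. The shared differences are therefore not shown to be particular to these genes.

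**Figure D4:**
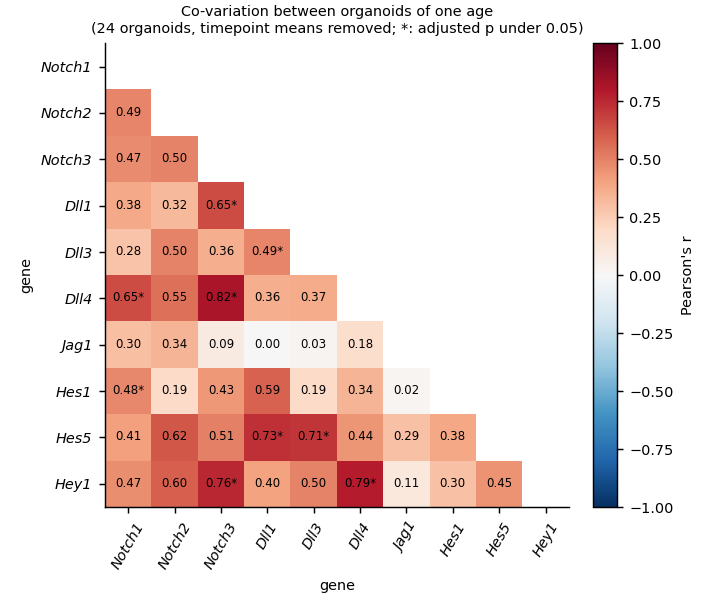
Pearson's r between each pair of genes over 24 organoids after the mean of each age was subtracted from the log2 normalized CPM; stars mark pairs with an adjusted permutation p under 0.05. Notch3 with Dll4 is the darkest cell (0.82), and the Jag1 row and column are pale.

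At D22 the organoids ranged widely in Dll1, Hes5 and rod markers. The D22 organoids 2 and 3 had the lowest Dll1 (47.2 and 39.6 normalized CPM) and the lowest Hes5 (16.6 and 10.8). The summed CPM of 6 rod markers was 3760 and 3910 in those 2 organoids, against 1470 to 2130 in the other 4. D22 organoid 6 was the reverse, with the highest Dll1 (97.3), the highest Hes5 (33.5) and the lowest rod sum (1470). The sum of the 9 retinal progenitor markers did not follow the same order. It was 965 and 760 in D22 organoids 2 and 3 and 984 in organoid 6. In organoids 1, 4 and 5 it was 791, 884 and 1290. The part of rod cells or progenitors in these levels was not tested.

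At D30 the spread of Notch2 was set beside the marker sums of other cell types. Notch2 was highest in D30 organoids 1, 5 and 2 (68.7, 58.0 and 52.3 normalized CPM) and lowest in organoids 6 and 3 (25.9 and 28.4). The summed CPM of the 10 Müller glia markers was 5030, 3930 and 3160 in the former and 1840 and 2660 in the latter, and it was 3160 in organoid 4, which had 37.3 CPM of Notch2. Over D20, D22 and D25 the sum had stayed between 1080 and 1700. From D25 to D30, 7 of the 10 markers rose and none fell, and all 10 were detected at every age, although some of them, such as Vim and Dkk3, are also expressed by progenitors. The mural sum was 80.2, 60.2 and 29.9 in D30 organoids 1, 5 and 2, 25.5 and 15.8 in organoids 3 and 4 and 11.9 in organoid 6. The sum of 5 markers of the oligodendrocyte lineage was highest in organoid 1 (248) and lowest in organoid 6 (53.4), with 101 to 141 in the others, and 4 of the 5 were higher and 1 lower at D30 than at D20. Several lists thus had their highest sum in the organoid with the most Notch2 and their lowest in that with the least. Lens markers did so as well (10.6 and 0.333). The rod, bipolar and endothelial sums were instead lowest in organoid 1 (4820, 212 and 126), and in organoid 6 they were 7900, 293 and 209. The part of these cell types in the rise of Notch2 was not tested.

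**Figure D5:**
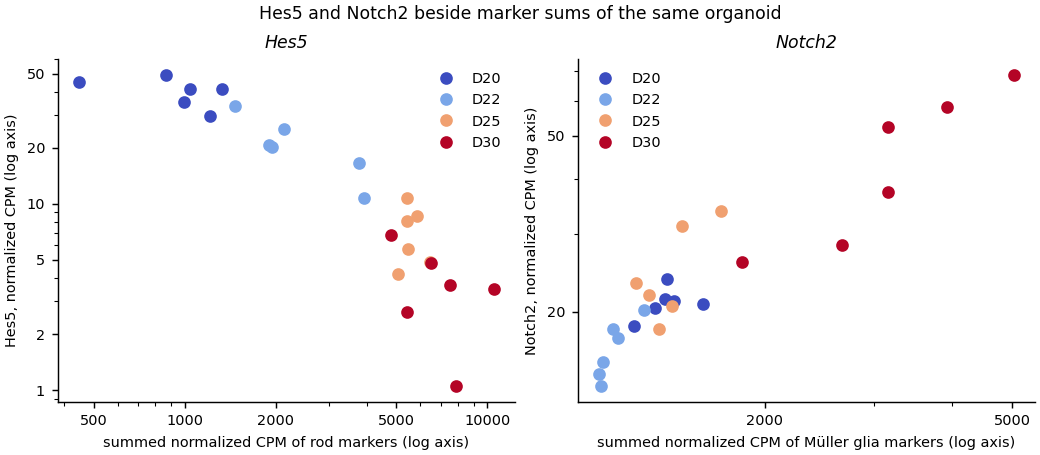
Normalized CPM of Hes5 against the summed CPM of 6 rod markers (left) and of Notch2 against the summed CPM of 10 Müller glia markers (right), log axes, with each point an organoid coloured by age. On the left the D22 organoids stretch from a rod sum of 1470 to 3910, and on the right the D30 organoids from a Müller sum of 1840 to 5030.

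The sums of progenitor and neurogenic precursor markers were lower at the later ages, unlike those of Müller glia. The sum of the 9 retinal progenitor markers went from a median of 1670 CPM at D20 to 477 at D30, with 7 of 9 lower and none higher from D20 to D30, while Sox2, also of that list, had a log2 change of 0.08 (adjusted p = 0.826). The sum of the 8 neurogenic precursor markers had medians of 1320, 971, 651 and 327 (5 of 7 tested lower, none higher). Rod marker sums rose from a median of 1020 to 7020, with 6 of 6 higher. The sum of 6 forebrain-type neuron markers, of cells a retinal organoid need not hold, rose from a median of 61.3 to 310. Of these markers, 2 of 6 were higher and none lower from D20 to D30. Per the study, Neurod6 of that list is also expressed in postmitotic amacrine cells, which are retinal neurons. Lens markers did not exceed 10.6. Markers of mural cells, which are known to use Notch3, had low sums with medians of 13.7, 8.05, 18.1 and 27.7 CPM at the 4 ages, and 2 of 5 tested were higher and none lower from D20 to D30, while Notch3 fell. These were Rgs5 (log2 3.35, adjusted p = 0.0022) and Tagln (1.67, adjusted p = 0.00994). Pigment epithelium markers ran from 26.6 to 242. The part of these cell types in the changes of the 10 genes was not tested.

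Genes with the time courses most like those of 4 members were named from 10824 well-counted annotated genes, by Pearson's r of log2 levels over the 24 organoids. These points share their ages, which alone makes r high. Among the 3 closest genes of each were Amotl2 and Lrp5 for Notch1 (0.96 and 0.95), E2f1 and Abcb4 for Dll1 (0.98 and 0.97) and Cdca7l and Smarcc1 for Hes5 (0.97 and 0.97). For Hes1 the 3 closest were Hnrnpc, Zscan12 and Rpl22 (0.90, 0.89 and 0.88), none of which was among the 3 closest of the other members named here. After the mean of each age was subtracted, r between these named genes and their member ran from 0.67 (Abcb4 with Dll1) to 0.88 (Cdca7l with Hes5). The closest pair of members, Notch3 and Dll4, had 0.82. The named genes had been picked for a high r over the 24 organoids.

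The wider pathway was followed with a list of 75 genes that includes the 10, of which 72 were tested. From D20 to D22, 5 of the 72 passed (1 higher and 4 lower), or 6.94%, and without the 10 members 4 of 62, or 6.45%. From D22 to D25, 14 of the 72 passed (2 higher and 12 lower), or 19.4%, and without the members 7 of 62, or 11.3%. From D25 to D30, 13 of the 72 passed (2 higher and 11 lower), or 18.1%, and without the members 12 of 62, or 19.4%. From D20 to D30, 47 of the 72 passed (12 higher and 35 lower), or 65.3%, and without the members 38 of 62, or 61.3%. Beside these stand the 1.9%, 5.28%, 3.51% and 26.8% of all features given above. The median log2 change of the 72 genes was -0.14, -0.11, -0.17 and -0.32 over these comparisons in turn.

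Of the 10 genes listed for cleavage, which include Adam10 and the presenilins that cut Notch receptors, 1 passed from D20 to D30, Aph1b, a part of gamma-secretase, with a log2 change of 0.72 (SE 0.18, adjusted p = 0.00173). Adam10 ran from 59.2 to 75.4 normalized CPM at D20 and from 62.5 to 93.6 at D30.

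In the nuclear complex, 1 of 7 genes passed from D22 to D25 and 4 of 7 from D20 to D30. Rbpj, the DNA-binding partner of cleaved Notch, ran from 108 to 142 normalized CPM at D20, 69.1 to 119 at D22, 60.1 to 69.1 at D25 and 41.8 to 57.0 at D30. It fell by 0.63 on the log2 scale from D22 to D25 (SE 0.11, adjusted p = 0.000347), by 0.48 from D25 to D30 (adjusted p = 0.00596, a call lost in 10 of 24 fits with 1 organoid left out) and by 1.39 from D20 to D30 (adjusted p = 2.973e-11). Maml3, a Mastermind coactivator, fell by 1.17 over the whole interval (adjusted p = 3.074e-10). Maml1 and Maml2 did not pass. Rbpj, Maml3 and, of the pathway genes in the next paragraphs, all other than Bend6, Dner, Hes6, Ccnd1, Sox9 and Rfng were picked for mention after their values were seen.

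Modifiers and other targets moved in both directions. The Fringe enzymes, which add sugars that tune the response of receptors to each ligand class, differed, with Lfng lower already from D20 to D22 (log2 -1.07, adjusted p = 0.00154), Mfng lower from D20 to D30 (-2.16, adjusted p = 3.951e-10) and Rfng higher (0.94, adjusted p = 0.000903). Of 11 tested targets and relatives, 6 were lower from D22 to D25, the members Hes1 and Hes5 among them, and none was higher. They included Sox9, a factor of progenitors and glia (log2 -1.1, SE 0.20, adjusted p = 0.000377), and Hes6, a Hes relative that opposes Hes1 (-1.09). From D20 to D30, Hes6 fell by 3.02 (adjusted p = 2.198e-14) and Ccnd1, the G1 cyclin, by 2.53 (adjusted p = 3.004e-13). Heyl fell by 3.68 (adjusted p = 9.754e-10). Hes2, a further Hes relative, had the most negative estimate of the list, with 2.49 to 4.27 normalized CPM at D20 and at most 0.222, or 4 counts, at D30 (adjusted p = 7.425e-09). By contrast, Hey2 rose by 1.09 from D25 to D30 (adjusted p = 0.00019), unlike its relative Hey1 (-0.03).

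The largest rises of the pathway list from D20 to D30 were those of Bend6 and Dner. Bend6, known as a neuronal antagonist of Notch that binds Rbpj, ran from 2.31 to 7.49 normalized CPM at D20, 2.88 to 7.19 at D22, 8.97 to 45.0 at D25 and 7.71 to 39.1 at D30. Its log2 change was 1.84 from D22 to D25 (SE 0.37, adjusted p = 0.00138), and without the D25 organoid at 45.0 it was 1.29. Dner, a neuronal surface protein related to the Notch ligands, ran from 5.63 to 16.9 at D20 and from 8.81 to 64.8 at D30, with a log2 change of 2.1 (SE 0.33, adjusted p = 5.869e-06). The groups overlapped at D20 and D30 for Dner. Of the 12 negative regulators in the list, 10 passed from D20 to D30, with Bend6 higher and the other 9 lower. Of those 9, the calls on Dtx2 and Itch were lost in 8 and 5 of 24 fits with 1 organoid left out and in 3 and 5 of the alternatives (adjusted p up to 0.0301 and 0.0605), and that on Numb in 1 alternative. The 9 included Nrarp, a feedback gene that Notch itself induces (log2 -1.85, adjusted p = 6.296e-09).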

How the data were processed

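RNA of 24 single organoids was sequenced after ribosomal RNA depletion. Per the labels and the study's methods, the authors demultiplexed with bcl2fastq 2.20, trimmed with cutadapt 1.5, checked reads with FastQC 0.11.2, aligned them with HISAT2 to GRCm38, sorted with SAMtools 1.1, assembled transcripts with StringTie 1.3.3 and deposited whole-number counts per feature from HTSeq 0.6.1, not normalized. The strand setting of the counting is not given in the sources used here.

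From these counts, features whose mean over libraries reached 10 were tested (46949, of which 16253 annotated) with edgeR 4.0.16 (quasi-likelihood, TMM, R 4.3.3) in 1 fit over the 4 ages, with Benjamini-Hochberg adjustment and a threshold of 0.01. DESeq2 1.42.0 was an alternative, beside its size factors, no count filter, annotated genes alone, the compared ages alone, a replicate block and leaving out each organoid. On simulated data, 200 genes were changed by 2 on the log2 scale between D22 and D25. Of these, 186 were tested and edgeR recovered 178. The dispersion of those data, the squared biological coefficient of variation, was 0.1. The common biological coefficient of variation of the organoid data was 0.3846, which is a wider spread than that simulated. Recovery of smaller changes, such as those of the 10 genes in that step, was not tested. Annotated genes took 83.25 to 87.06% of 13634846 to 19477108 counted reads, and the floor of 3 counts covers counting error only. Ratios and co-variation were tested by permutation in Python 3.11.15.

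The 10 genes, the pathway and marker lists and the tests were chosen with earlier results of these data known. Of the pathway list, genes past the threshold whose normalized counts averaged 100 or more were named, up to the 6 largest changes per direction from D22 to D25 and from D20 to D30, and the closest time courses by r, of which 1 gene is not reported here. Same-numbered organoids of different ages had correlations of their deviations from -0.08 to 0.187, so the numbers did not pair them.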

Additional observations from a re-analysis of the deposited data

Results flagged for a closer look

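In 40 groups of 6 organoids (10 genes at 4 ages), 2 had an extreme organoid farther from its neighbour than Dixon's criterion allows, where chance gives about 1 in 20. Dll1 at D20 was 152 normalized CPM in replicate 1, against 113 in the next organoid. The same organoid had the highest Notch1 (171), Notch3 (12.8), Dll3 (27.5) and Dll4 (23.2) of its age and the lowest rod marker sum (446). Jag1 at D30 was 25.7 in replicate 5, against 15.7 in the next.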

How the results depend on the processing

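The count of the 10 genes past 0.01 from D20 to D22, 1 as reported, was 2 with DESeq2, 3 with the libraries of those ages alone and 0 to 2 with 1 organoid left out. From D25 to D30, 1 as reported, it was 3 with DESeq2, 2 with its size factors in edgeR, 0 with those ages alone and 0 to 2 with 1 organoid left out. It was 6 to 7 from D22 to D25 and 9 to 9 from D20 to D30 with 1 organoid left out. In the test of the change per day it was 1 with DESeq2. The pathway list gave 1 to 6 calls from D20 to D22 and 8 to 14 from D25 to D30 with 1 organoid left out, the fewest without D25 replicate 2. Directions turned only for values that had not passed. With 1 organoid left out, the log2 change of Notch3 from D25 to D30 ran from -0.0565 to 0.346, that of Hes1 from D20 to D22 from -0.16 to 0.0303 and that of Hey1 from D20 to D22 from -0.0278 to 0.139. The log2 fold change of Hey1, D30 against D25, ran from -0.126 to 0.121 with 1 organoid left out and was 0.0265 with DESeq2 and 0.0263 with its size factors. The cause was not tested. With the replicate number as a block, which the check of pairing did not warrant, 1, 7, 1 and 9 of the genes passed in the 3 steps and from D20 to D30, and no call on a member changed. Ligands at D30 were limited by depth, with Dll4 at 3 to 32 counts and Dll3 at 4 to 54.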
